A study of Mus musculus with 50 samples.

Results

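Control microglia of mouse pups at 2 weeks of age were set against control microglia of the day of birth (P0), in 15 of the 50 RNA-seq libraries of a study on the histone deacetylases HDAC1 and HDAC2. The 15 libraries were chosen by their labels and column names alone, as every library without Cre at these ages. The 8 libraries at 2 weeks were 4 controls of the constitutive knockout model and 4 controls of the inducible knockout model. The 7 libraries at P0 were 4 controls of the constitutive model and 3 of the inducible model. All of these mice had the Hdac1/2 loxP/loxP genotype and no Cre, so that neither gene was deleted in any library compared here. Controls of the constitutive model were untreated. Controls of the inducible model came from dams injected with 3 mg tamoxifen, given with progesterone, on embryonic day 13, so that the model and the drug cannot be told apart. Per the labels, P0 pups were decapitated and 2-week animals were perfused through the heart, so age and the way of killing cannot be told apart either. Cells were isolated from the brain by flow cytometry. The labels give no antibodies or gates. Each library came from its own numbered animal, litters are not named, and p-values therefore measure the spread between animals that may share a litter.

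Microglia are the resident macrophages of the brain. They derive from yolk sac precursors, enter the brain in the embryo, and depend on the receptor CSF1R for survival and on TGF-beta signalling for their mature identity. Around birth they divide and many are amoeboid and phagocytic, and over the first postnatal weeks they become ramified and take on the so-called homeostatic program, marked by genes such as Tmem119 and P2ry12. The label of the samples was checked against such markers. The 35 genes of a homeostatic microglia list together held 102250.0 to 112840.0 CPM at 2 weeks, against 33368 to 39471 CPM at P0, and Tmem119, P2ry12 and Csf1r were high in every library at both ages. At 2 weeks 4 of 16 lymphocyte markers, among them Cd3g, Cd8a and Gzma, had no count. The 16 together held 73.3 to 99 CPM at 2 weeks, against 100 to 245 CPM at P0. Cd79b, one of the 2 most abundant of them, was not called (log2 change 0.03). No neuron marker exceeded 2.15 CPM at 2 weeks.

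The 15 libraries held 12307658 to 21829753 counts. Levels are given as counts per 1000000 of the library total (CPM), most often as the lowest, the median and the highest of the 8 libraries at 2 weeks or of the 7 at P0. Changes are log2 changes of 2 weeks over P0 from a fit in edgeR with the model as a block, each with its standard error after the ± sign, and a gene rose or fell only where its Benjamini-Hochberg adjusted p was under 0.05. A second rule tested against a change of 2-fold. At 2 weeks 19112 to 20104 genes had counts, against 22791 to 24757 at P0. The TMM scaling factors were 0.869 to 0.927 at 2 weeks and 1.02 to 1.20 at P0. Sex, read from Xist and genes on the Y chromosome, was female in all 4 inducible-model libraries at 2 weeks and male in all 3 at P0, so that sex and age cannot be told apart in that model. In the constitutive model 1 library at each age was female. Hdac1 rose and Hdac2 fell with age, with Hdac1 at 16.2, 18.3 and 19 CPM at 2 weeks, against 11.4, 12.5 and 14.9 CPM at P0 (log2 change 0.81 ± 0.10) and Hdac2 at 59.8, 71.6 and 82.2 CPM at 2 weeks, against 126, 139 and 164 CPM at P0 (log2 change -0.68 ± 0.08).

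Summed markers of most other cell types were lower in the 2-week than in the P0 libraries. The 15 neuron markers summed to 3.24 to 10.2 CPM at 2 weeks, against 464 to 2036 CPM at P0. For the erythroid markers the sums were 45.3 to 71.4 CPM at 2 weeks, against 426 to 1168 CPM at P0, for the vascular markers 56.2 to 76.5 CPM at 2 weeks, against 103 to 323 CPM at P0, and for the astrocyte and radial glia markers 227 to 299.5 CPM at 2 weeks, against 545 to 1911 CPM at P0. Markers of macrophages at the borders of the brain, some of which fetal microglia share, summed to 655 to 896 CPM at 2 weeks, against 2916 to 15291 CPM at P0. The neutrophil sums were 470.2 to 1219 CPM at 2 weeks, against 896 to 4176 CPM at P0 and overlapped between the ages, and the monocyte sums were 20.5 to 87.1 CPM at 2 weeks, against 251 to 799 CPM at P0. At P0 3 libraries stood apart. Inducible-model libraries 54 and 55 held Mrc1, the mannose receptor gene of border macrophages, at 3548 and 3494 CPM, while the other 5 held 591 to 885 CPM, and constitutive-model library 70 had the highest neuron sum. The libraries carry no strand, and reads cannot be told apart from those of an overlapping gene for C2, Cd9, Cdk4, Cdkn1a, Cx3cr1, Dnmt3a, Elmo1, Eng, Fam124a, Gpi1, Gria2, Grin1, Ifnar2, Igf2bp3, Il1a, Il1b, Il6ra, Itgav, Jun, Lpcat2, Meg3, Mmp28, Nnat, Prc1, Spp1, Tlr3, Trp53cor1 and Tuba1a, and for genes whose overlap is named with their values. In bulk libraries fewer cells of a type and less RNA per cell cannot be told apart.

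**Figure D1:**
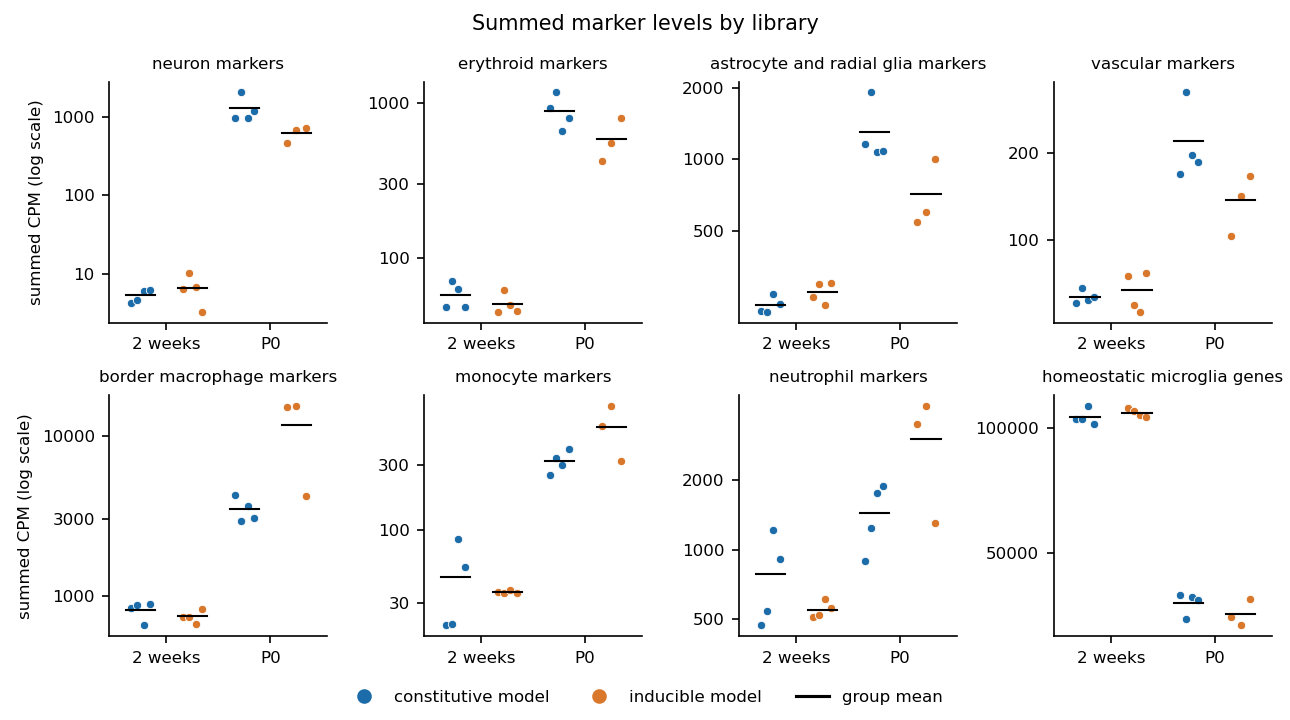
Summed CPM (log scale) of the markers of 7 other cell types and of the homeostatic microglia genes in each control library at 2 weeks and at P0. Points are libraries, colours mark the model and lines are group means. Neuron markers sum to 3.24 to 10.2 CPM at 2 weeks, against 464 to 2036 CPM at P0, while the homeostatic genes run the other way.

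A large part of the transcriptome differed between the 2 ages. Of 18243 genes tested, 5610 rose (30.8%) and 7182 fell (39.4%) at 2 weeks relative to P0, with a median log2 change of -0.07. By the test against 2-fold, 992 rose (5.44%) and 4566 fell (25.0%). In 1401 genes all 2-week libraries lay above all P0 libraries, and in 6037 genes all lay below. The split depends on the scaling: with library totals alone 3304 genes rose and 9282 fell (median log2 change -0.39), and with TMM factors from genes of at least 10 CPM in every library, a setting chosen after the data were seen, 3866 rose and 8633 fell (median -0.30). Counts of gene lists cover the members that passed the filter on low counts. Since the fit uses TMM factors that differ between the ages, a fitted log2 change in general lies above the plain ratio of the CPM printed beside it.

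The most abundant transcripts changed places. At 2 weeks Cst3 led (17220 CPM), and P2ry12, Csf1r and Serinc3 were among the most abundant as well. The 10 most abundant genes held 9.66% of the counts. At P0 Apoe led (10320 CPM), followed by Tmsb4x, Ctsb, Serinc3 and Csf1r, and the 10 most abundant genes held 6.27%.

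Nearly the whole homeostatic program was higher at 2 weeks. Of the 35 homeostatic microglia genes 34 rose and none fell (30.8% and 39.4% of all genes tested), 27 of them past the 2-fold test, with a median log2 change of 1.79. Crybb1, a crystallin gene, was the member not called, at 408, 509 and 615 CPM at 2 weeks, against 433, 532 and 809 CPM at P0 (log2 change 0.11 ± 0.12). In 30 of the 35 genes every 2-week library lay above every P0 library, as in 1401 of all 18243 genes tested. These genes include cell surface receptors, secreted proteins and transcription factors, and members of each class rose.

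Selplg (chromosome 5, 113818536 to 113832644, minus strand), the gene of the P-selectin ligand PSGL-1, had the largest change of the list and held 3030.1, 3605 and 4296 CPM at 2 weeks, against 270.1, 303 and 395 CPM at P0. The change was 14.7-fold (log2 change 3.88 ± 0.10, edgeR adjusted p = 6.50e-15), and the lowest 2-week library stood far above the highest P0 library. Tmem119 (chromosome 5, 113793729 to 113800516, minus strand), a membrane protein gene used as a microglia marker, held 2446, 2774 and 3266 CPM at 2 weeks, against 318, 463 and 526 CPM at P0 (log2 change 3.01 ± 0.12). P2ry12 (chromosome 3, 59216272 to 59262871, minus strand), the ADP receptor that guides microglial processes to sites of damage, held 10438, 11536 and 14008 CPM at 2 weeks, against 1796, 2418 and 2555 CPM at P0 (log2 change 2.71 ± 0.09, edgeR adjusted p = 7.48e-14). Its exons overlap those of Med12l, from which counts of a library without strand cannot be told apart. The neighbouring receptor gene P2ry13 held 2446, 2698 and 3109.8 CPM at 2 weeks, against 628, 749.8 and 824 CPM at P0, a log2 change of 2.24 ± 0.07. Adgrg1, which encodes the adhesion receptor GPR56, held 924, 1105 and 1282 CPM at 2 weeks, against 148, 179.8 and 202 CPM at P0 (log2 change 2.97 ± 0.09). P2ry12 had log2 changes of 2.54 ± 0.12 in the constitutive and 2.77 ± 0.12 in the inducible model fitted alone, and Selplg of 3.96 ± 0.11 and 3.66 ± 0.15.

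Secreted members and others rose as well. Cst3, which encodes the protease inhibitor cystatin C, held 13074, 16723 and 22356 CPM at 2 weeks, against 2919, 3679.8 and 4421 CPM at P0 (log2 change 2.51 ± 0.12). Sparc, a matrix-associated protein gene, held 8805, 9310.0 and 10479 CPM at 2 weeks, against 1348, 2562 and 2813 CPM at P0 (log2 change 2.36 ± 0.12). The fractalkine receptor gene Cx3cr1 was already high at birth and held 5248, 6525 and 7273 CPM at 2 weeks, against 2539.8, 2858 and 3769 CPM at P0 (log2 change 1.38 ± 0.07). Slc2a5, the fructose transporter gene GLUT5, held 375.6, 416 and 488 CPM at 2 weeks, against 99.6, 113 and 134 CPM at P0, and its groups did not overlap (log2 change 2.20 ± 0.09).

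**Figure D2:**
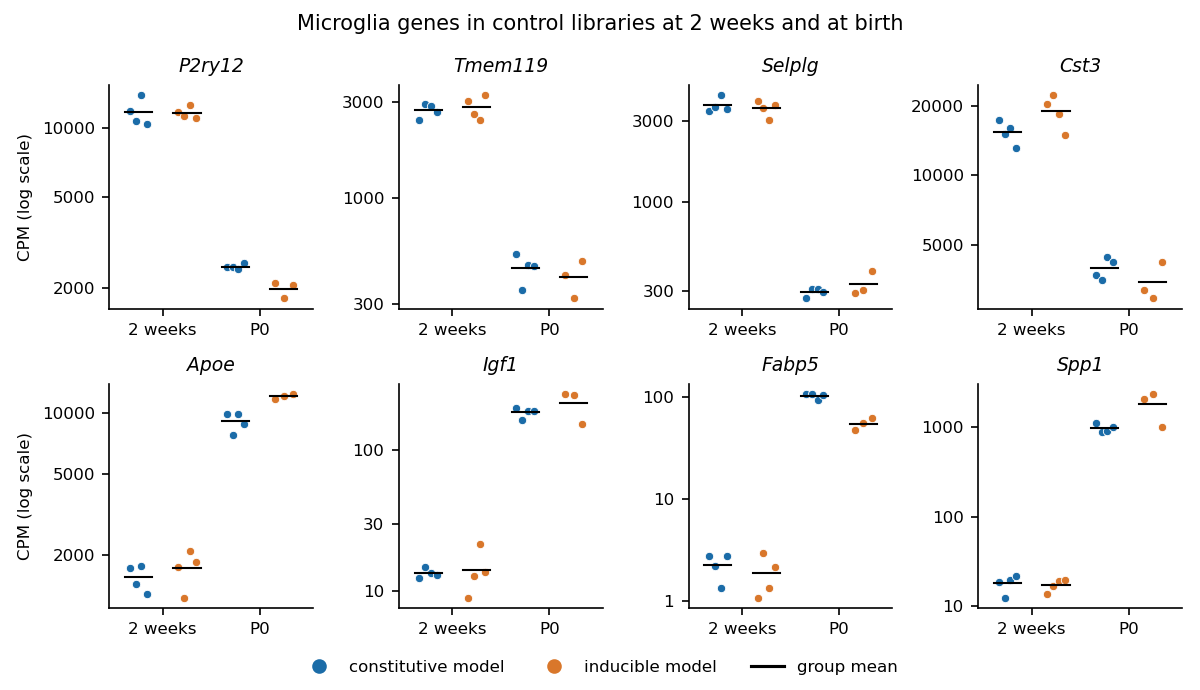
CPM (log scale) of 4 homeostatic genes (top) and 4 genes of the neonatal program (bottom) in each control library at 2 weeks and at P0. Points are libraries coloured by model and lines are group means. In each of the 8 genes the 2 ages do not overlap.

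Transcription factors moved in both directions. Of the 38 microglia and macrophage transcription factors 24 rose and 9 fell (30.8% and 39.4% of all genes tested), with a median log2 change of 0.51. Sall1, a zinc finger factor that maintains microglial identity, held 878, 949.9 and 1018 CPM at 2 weeks, against 267, 409 and 518 CPM at P0 (log2 change 1.56 ± 0.11). Mef2a held 862, 953 and 985 CPM at 2 weeks, against 326, 334 and 437 CPM at P0 (log2 change 1.71 ± 0.08, exons shared in part with Lysmd4), while its relative Mef2c rose by less, at 885, 942 and 973 CPM at 2 weeks, against 639, 756 and 842 CPM at P0 (log2 change 0.61 ± 0.07). Ets1 held 109.6, 189 and 206 CPM at 2 weeks, against 41.7, 48.5 and 77.4 CPM at P0 (log2 change 2.11 ± 0.15). Among those that fell were the helix-loop-helix inhibitors Id1 (log2 change -3.43 ± 0.27) and Id3 (log2 change -5.74 ± 0.43), which are targets of BMP signalling and are also expressed in vascular and glial cells. Id3 held 0.0493, 0.161 and 0.915 CPM at 2 weeks, against 8.25, 20.6 and 39.2 CPM at P0.

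Receptors and a signal transducer of the TGF-beta pathway rose, while the ligand genes Tgfb2 and Tgfb3 fell. Of the 28 genes of the pathway 19 rose and 7 fell (30.8% and 39.4% of all genes tested), with a median log2 change of 0.76. The type I receptor gene Tgfbr1 held 2398, 2552 and 3040.4 CPM at 2 weeks, against 738, 793 and 916 CPM at P0 (log2 change 1.99 ± 0.08), with no overlap, and the type II receptor gene Tgfbr2 held 543, 701 and 831 CPM at 2 weeks, against 322, 369 and 473 CPM at P0 (log2 change 1.13 ± 0.09). The ligand genes Tgfb2 and Tgfb3 fell (log2 changes -4.75 ± 0.42 and -4.52 ± 0.57). Eng, the co-receptor endoglin, held 102, 118 and 129.9 CPM at 2 weeks, against 24.6, 30.7 and 33.1 CPM at P0 (log2 change 2.28 ± 0.09). The signal transducer Smad3 held 109, 121 and 134 CPM at 2 weeks, against 43.4, 46.3 and 62.1 CPM at P0 (log2 change 1.62 ± 0.08). Itgav, an integrin subunit that takes part in activating latent TGF-beta, held 244, 259 and 282 CPM at 2 weeks, against 89.6, 109 and 119.6 CPM at P0 (log2 change 1.62 ± 0.07). Itgb8, another integrin subunit gene, went the other way and had the lowest log2 change of the 28 genes (-6.27).

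Receptors for growth and survival signals rose while both ligand genes of CSF1R fell. Of the 17 genes of the Csf1r and Trem2 pathways 11 rose and 3 fell (30.8% and 39.4% of all genes tested). Csf1r held 9693, 11435 and 13550.0 CPM at 2 weeks, against 3439, 6202 and 7623 CPM at P0, a log2 change of 1.29 ± 0.13, and part of its exons is shared with Hmgxb3. Csf3r, the receptor gene for G-CSF that neutrophils use as well, held 329, 363 and 409 CPM at 2 weeks, against 132, 159 and 173 CPM at P0 (log2 change 1.55 ± 0.08). Csf1, which encodes a ligand of CSF1R, held 18.4, 23.7 and 26.3 CPM at 2 weeks, against 79, 116 and 161 CPM at P0, and every 2-week library lay below every P0 library (log2 change -2.06 ± 0.11). Il34, the gene of its other ligand, held 0, 0 and 0.102 CPM at 2 weeks, against 0, 0.962 and 2.49 CPM at P0, with overlapping groups (log2 change -4.30 ± 0.80, or -5.41 in the male constitutive-model libraries alone, a choice made after the data were seen). Its exons overlap Gm15894 and Gm15895. The neuron sums fell in the same libraries, and the part of RNA from other cells in the fall of Il34 was not tested. Trem2, a lipid-sensing receptor gene, held 902, 984 and 1129 CPM at 2 weeks, against 522, 702 and 785 CPM at P0 (log2 change 0.92 ± 0.09), and its adaptor Tyrobp was not called, at 740.2, 991 and 1041 CPM at 2 weeks, against 816, 1057 and 1292 CPM at P0 (log2 change 0.13 ± 0.10).

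The genes of the neonatal, amoeboid state fell together. Of the 35 tested members of the list of postnatal proliferation-associated and amoeboid microglia genes 30 fell and 2 rose (39.4% and 30.8% of all genes tested). Past the 2-fold test were 25 of the falls, and the median log2 change was -3.05. Spp1, the gene of the secreted phosphoprotein osteopontin, held 12.5, 19 and 22 CPM at 2 weeks, against 877, 1022 and 2364 CPM at P0 (log2 change -5.89 ± 0.25, edgeR adjusted p = 8.70e-12). The highest P0 values, 2066 and 2364 CPM, were those of the inducible-model libraries 54 and 55, and the other 5 lay between 877 and 1123 CPM. Igf1, the growth factor gene, held 9, 13.3 and 21.6 CPM at 2 weeks, against 153, 192 and 252 CPM at P0 (log2 change -3.54 ± 0.16). Fabp5, a fatty acid binding protein gene, held 1.07, 2.17 and 2.95 CPM at 2 weeks, against 47.3, 93.7 and 108 CPM at P0 (log2 change -4.91 ± 0.19). Gpnmb, a glycoprotein gene of lipid-laden macrophages, held 0, 0.123 and 0.533 CPM at 2 weeks, against 28.7, 39.1 and 62.1 CPM at P0 (log2 change -7.58 ± 0.38). Ctsb, a cathepsin gene whose exons overlap Fdft1, kept a high level and fell, at 2799, 3237 and 3421 CPM at 2 weeks, against 5706, 7861 and 9229 CPM at P0. Cd68 and Cd9 were the members that rose, with log2 changes of 0.67 ± 0.09 and 0.21 ± 0.09. The change of Cd9 turned to -0.11 with library totals alone and -0.02 with factors from genes of at least 10 CPM, and its call was lost without any single one of 11 libraries. The list holds Mrc1, Ms4a7 and Dab2, which border macrophages express too, and the part of the border macrophage RNA above in these falls was not tested.

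Genes of lipoproteins and lipid droplets followed the same direction. Of the 20 lipid export and lipoprotein genes 13 fell and 3 rose (39.4% and 30.8% of all genes tested). Apoe (chromosome 7, 19696109 to 19699188, minus strand), the lipoprotein gene that led the P0 libraries, held 1241, 1747 and 2104 CPM at 2 weeks, against 7727, 9886 and 12329 CPM at P0 (log2 change -2.33 ± 0.12, 5.04-fold lower at 2 weeks). Plin2, a lipid droplet coat gene, held 34.6, 35.9 and 44 CPM at 2 weeks, against 297, 429.7 and 501 CPM at P0 (log2 change -3.11 ± 0.11). Pltp, the phospholipid transfer protein gene, held 0.403, 0.65 and 0.861 CPM at 2 weeks, against 14, 19.4 and 43.1 CPM at P0 (log2 change -4.98 ± 0.22), though part of its exons overlaps Ctsa. Lpcat2, an enzyme gene of phospholipid remodelling and platelet-activating factor synthesis, went the other way and held 1683, 1742 and 1868 CPM at 2 weeks, against 541, 735 and 832 CPM at P0 (log2 change 1.61 ± 0.08).

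**Figure D3:**
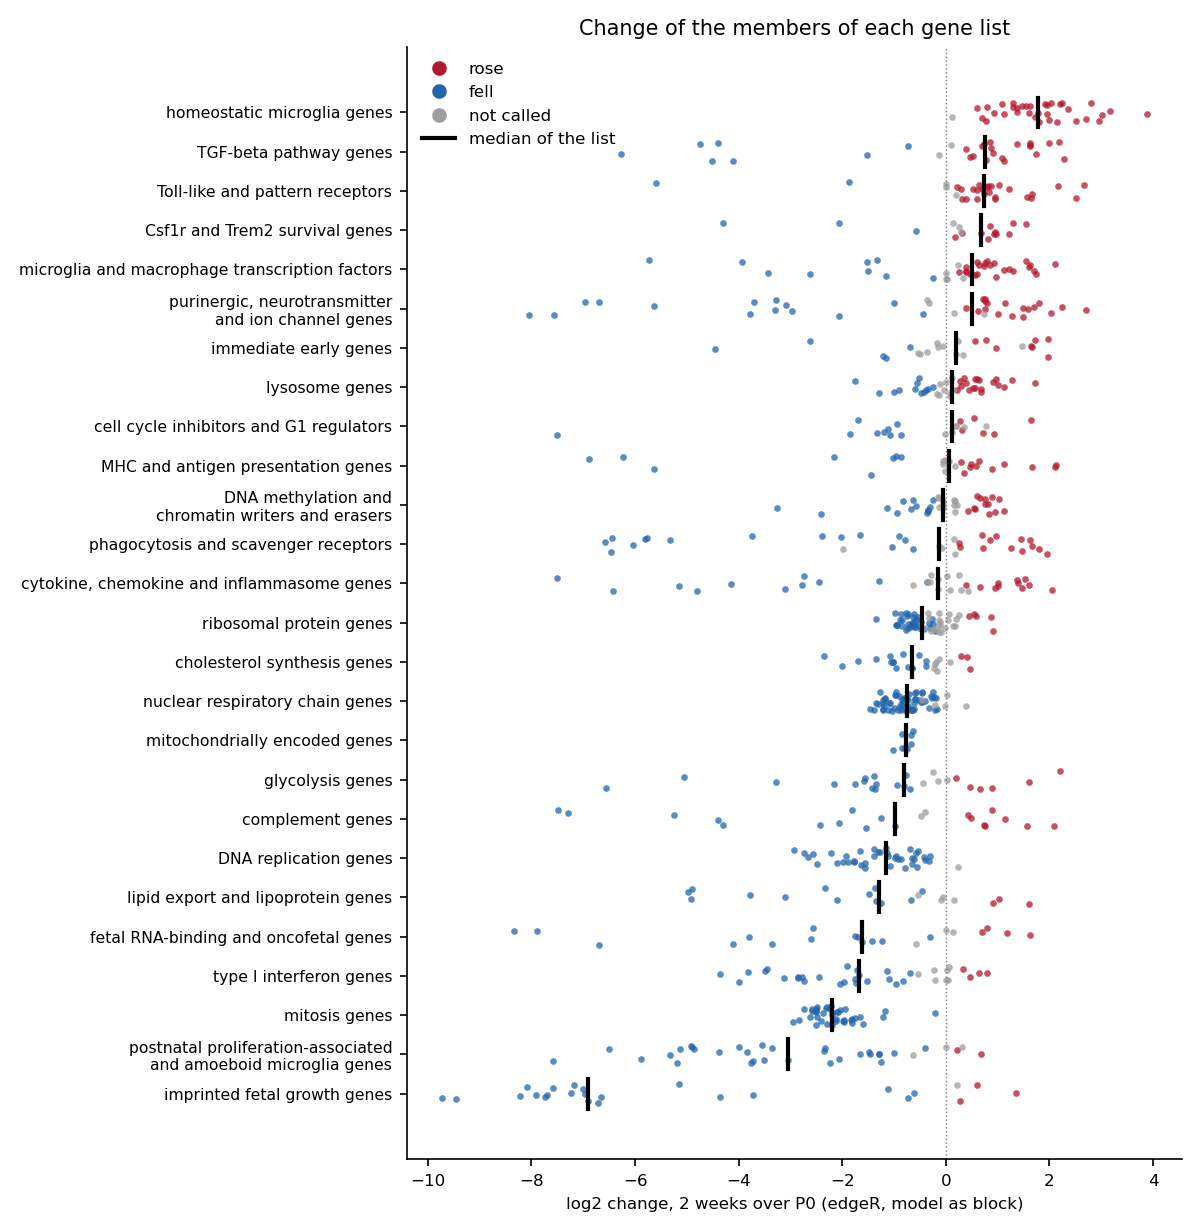
Log2 change of 2 weeks over P0 for the tested members of 26 gene lists, sorted by the median of the list. Each point is a gene, red for a rise, blue for a fall and grey for no call, and black bars are medians. Homeostatic genes have the highest median (1.79) and imprinted fetal growth genes the lowest (-6.90).

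Cell division genes fell as a block. Of the 41 DNA replication genes 40 fell and none rose (39.4% and 30.8% of all genes tested), with a median log2 change of -1.15. E2f2, an E2F transcription factor gene, was not called (log2 change 0.24 ± 0.17), but rose without inducible-model P0 library 56 (0.36) and in the male constitutive-model libraries alone (0.73). All 40 mitosis genes fell, 36 of them past the 2-fold test, with a median of -2.20. In 38 of 40 mitosis genes and 38 of 41 replication genes every 2-week library lay below every P0 library. The same held for 6037 of all 18243 genes tested. The transcripts were lower at 2 weeks but still present, since the 40 mitosis genes together held 317 to 765 CPM at 2 weeks, against 1886 to 3041 CPM at P0.

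Mki67, the gene of the proliferation antigen Ki-67, held 19.3, 56.6 and 77.4 CPM at 2 weeks, against 157, 216 and 321 CPM at P0 (log2 change -1.98 ± 0.33). Ccnb2, which encodes cyclin B2 of the entry into mitosis, held 3.83, 9.78 and 16.1 CPM at 2 weeks, against 65.8, 74 and 85.3 CPM at P0 (log2 change -2.73 ± 0.23). Ube2c, the ubiquitin-conjugating enzyme gene of the anaphase-promoting complex, held 1.97, 4.57 and 7.85 CPM at 2 weeks, against 42.4, 45.4 and 51.8 CPM at P0 (log2 change -2.96 ± 0.20), and its exons overlap Tnnc2. Cenpa, the centromeric histone gene, held 11.9, 14.9 and 22.9 CPM at 2 weeks, against 56.5, 84.7 and 109.6 CPM at P0 (log2 change -2.05 ± 0.17). Bub3 had the smallest fall of the list, at 98.6, 114 and 122 CPM at 2 weeks, against 144, 163 and 174 CPM at P0 (log2 change -0.20 ± 0.06). Among replication genes, Rrm2 and Rrm1, subunits of ribonucleotide reductase, changed by -2.57 ± 0.21 and -1.66 ± 0.14 on the log2 scale, and Tyms, thymidylate synthase, by -1.39 ± 0.11. Dut, which removes dUTP, held 2.34, 4.33 and 6.34 CPM at 2 weeks, against 29.9, 32 and 43.4 CPM at P0 (log2 change -2.66 ± 0.17). Mcm3, a helicase subunit gene, fell by less, at 54, 66.1 and 94.8 CPM at 2 weeks, against 112, 143 and 169 CPM at P0 (log2 change -0.65 ± 0.13), and Pcna, the sliding clamp gene, had a log2 change of -0.32 ± 0.09. In the male constitutive-model libraries alone Bub3 (-0.22), Mcm3 (-0.23) and Pcna (-0.24) were not called.

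Promoters of cell division genes are known for sequence elements of the cell cycle, the CHR and CCAAT boxes of mitosis genes and the E2F site of replication genes. Windows from 250 bases before to 50 bases after each gene's start, from RefSeq on GRCm38.p6, were found by symbol for 12221 of the genes tested, for 33 mitosis genes and for 32 replication genes. The CHR element TTTGAA, on either strand, was in the windows of 23 of 33 mitosis genes (69.7%), against 14.6% of all genes tested and 15.6% of replication genes. A CCAAT box was in 26 mitosis windows (78.8%, against 42.3% of all). An E2F match (TTTCCCGC, TTTCGCGC, TTTGCCGC or TTTGGCGC, on either strand) was in 14 of 32 replication genes (43.8%), against 4.38% of all and 1 of the mitosis genes. The core AGGAAGT of the macrophage factor PU.1 was in 6 of 22 homeostatic genes with a window (27.3%) and in 10.6% of all. Among other lists its share ran from 0% (such as neuron markers) to 42.9% (such as neutrophil markers). It was 40% in border macrophage markers, so higher shares were not limited to lists that rose. The CLEAR core TCACGTGA of lysosomal genes was in 5 of 31 lysosome genes and in 1.97% of all. Among the genes that fell past the 2-fold test, CHR was in 16% and E2F in 3.25% of the windows, and among those that rose AGGAAGT was in 15%. These shares describe letters in a window and carry no test.

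Promoter sequences show these elements in 3 mitosis genes, 2 replication genes and P2ry12. Each is the 180 bases just before the start that RefSeq gives on GRCm38.p6, which can differ from the GENCODE start behind the gene positions in the text, 5′ to 3′ on the strand of the gene, with the matches to the motifs above in capitals. CCAAT or ATTGG marks a CCAAT box, TTTGAA or TTCAAA a CHR element, and AGGAAGT the PU.1 core. Longer capital runs are E2F matches, which overlap in Mcm5 and in the first run of Mcm6. The windows lie at chr9:70421555-70421734, minus strand (Ccnb2), chr2:164769749-164769928, plus strand (Ube2c), chr7:135716380-135716559, minus strand (Mki67), chr8:75109329-75109508, plus strand (Mcm5), chr1:128359706-128359885, minus strand (Mcm6), chr3:59262986-59263165, minus strand (P2ry12). Mcm5 and Mcm6, helicase subunit genes, fell by a log2 change of -1.77 ± 0.23 and -2.22 ± 0.28.
Ccnb2: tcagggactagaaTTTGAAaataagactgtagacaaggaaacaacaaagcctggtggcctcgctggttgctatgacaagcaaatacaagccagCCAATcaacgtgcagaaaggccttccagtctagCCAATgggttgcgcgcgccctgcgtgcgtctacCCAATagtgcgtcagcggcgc
Ube2c: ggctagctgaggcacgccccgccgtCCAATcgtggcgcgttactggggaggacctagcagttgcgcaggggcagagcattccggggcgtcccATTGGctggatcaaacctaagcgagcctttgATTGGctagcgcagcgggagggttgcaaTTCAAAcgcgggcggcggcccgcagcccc
Mki67: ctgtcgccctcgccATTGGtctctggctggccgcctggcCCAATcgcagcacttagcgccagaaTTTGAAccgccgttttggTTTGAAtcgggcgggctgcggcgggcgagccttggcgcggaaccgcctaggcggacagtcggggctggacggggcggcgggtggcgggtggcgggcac
Mcm5: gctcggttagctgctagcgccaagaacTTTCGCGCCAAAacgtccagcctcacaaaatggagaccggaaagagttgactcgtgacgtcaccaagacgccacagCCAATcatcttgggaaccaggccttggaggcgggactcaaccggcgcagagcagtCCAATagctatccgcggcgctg
Mcm6: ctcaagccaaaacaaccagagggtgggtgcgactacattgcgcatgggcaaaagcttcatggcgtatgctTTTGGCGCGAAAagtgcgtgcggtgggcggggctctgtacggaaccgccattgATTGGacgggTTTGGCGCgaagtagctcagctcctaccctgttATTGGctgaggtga
P2ry12: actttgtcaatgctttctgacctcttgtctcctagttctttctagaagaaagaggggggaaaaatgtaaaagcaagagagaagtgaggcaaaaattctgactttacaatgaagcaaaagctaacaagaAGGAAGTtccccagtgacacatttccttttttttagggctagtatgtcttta

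The fall of the division genes differed between the models, and the difference itself was tested. Across all genes the age effect of the constitutive model minus that of the inducible model was positive in 345 of 18243 genes (1.89%) and negative in 72 (0.395%). Of the 40 mitosis genes 35 had a positive difference and none a negative one, and so did 16 of the 41 replication genes. The median log2 change of the mitosis genes was -1.55 in the constitutive and -3.08 in the inducible model. Mki67 held 68.3, 77.4, 68.5 and 73.7 CPM in the 4 constitutive-model libraries at 2 weeks and 168, 206, 157 and 216 CPM in those at P0. In the inducible model it held 19.3, 21.8, 37.9 and 44.9 CPM at 2 weeks and 299, 311 and 321 CPM at P0. So at 2 weeks all inducible-model libraries lay below all constitutive-model ones, and at P0 they lay above them. The difference was 2.05 ± 0.28 on the log2 scale (edgeR adjusted p = 0.00122).

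Of the 10 genes with the smallest p for this difference 7 are in the mitosis or replication list. Kif23, a kinesin gene of cytokinesis, had a difference of 2.23 ± 0.21 (edgeR adjusted p = 5.73e-05). For Ndc80 and Spc25, of the kinetochore, the difference was 2.36 ± 0.26 and 1.80 ± 0.23, for the spindle genes Prc1 and Tpx2 it was 1.96 ± 0.23 and 1.93 ± 0.23, for Racgap1 1.85 ± 0.22 and for Rrm2 1.45 ± 0.19. Among those outside these lists were Aspm, a spindle pole gene (3.00 ± 0.35), and Shcbp1, which acts in cytokinesis (2.25 ± 0.27). Rrm2 held 21.8 ± 2.02 and 105 ± 14.3 CPM (SD, n = 4 each) in the constitutive model at 2 weeks and at P0, and 9.05 ± 1.82 (SD, n = 4) and 111 ± 4.71 CPM (SD, n = 3) in the inducible model. The models also differ in tamoxifen exposure, sex runs with age in the inducible model alone, and P0 libraries 54 and 55 stand apart. Without inducible-model P0 library 54, 55 or 56 the positive differences numbered 125, 117 and 549 genes. Without the 3 P0 libraries that stand apart, a choice made after the data were seen which leaves a single inducible-model library at P0, 56 positive differences passed the threshold, 8 of them of mitosis and 2 of replication genes.

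**Figure D4:**
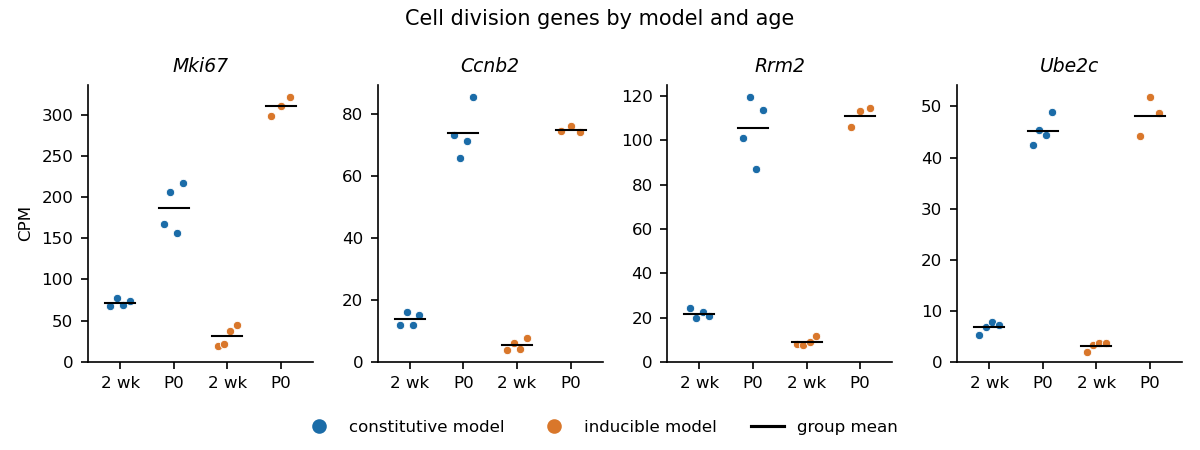
CPM of 4 cell division genes in control libraries, by model, with 2 weeks left of P0. Points are libraries and lines are group means on axes that start at 0. In all 4 genes every 2-week library lies below every P0 library of its model, and the inducible-model libraries at 2 weeks are the lowest.

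Of the 21 cell cycle inhibitors and G1 regulators 6 rose and 9 fell, near the shares over all genes tested (30.8% and 39.4%). Ccnd2, the gene of cyclin D2, held 0.0508, 0.328 and 1.04 CPM at 2 weeks, against 50.2, 111 and 180.1 CPM at P0 (log2 change -7.51 ± 0.35). Its exons overlap those of 2 unnamed transcripts, and neurons and their precursors express it too. Cdk4, the kinase partner of D cyclins, held 94.3, 110.5 and 129 CPM at 2 weeks, against 247, 299 and 371 CPM at P0 (log2 change -1.07 ± 0.06). The inhibitor genes Cdkn2d and Cdkn1a fell (log2 changes -1.32 ± 0.16 and -0.94 ± 0.15). Btg2, an antiproliferative and immediate early gene, rose and held 219, 320.2 and 484 CPM at 2 weeks, against 63.1, 131 and 289.6 CPM at P0 (log2 change 1.64 ± 0.18), with overlapping groups.

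Most sensors of microbial products and their adaptors rose. Of the 29 Toll-like and pattern receptors and their adaptors 24 rose and 2 fell (30.8% and 39.4% of all genes tested). The median log2 change was 0.75. Tmem173, which encodes the cyclic dinucleotide sensor STING, held 601, 647 and 832 CPM at 2 weeks, against 123, 147 and 176 CPM at P0 (log2 change 2.51 ± 0.07). Tlr3, a sensor of double-stranded RNA, held 89.6, 102 and 114 CPM at 2 weeks, against 18.7, 28.1 and 41.4 CPM at P0 (log2 change 2.16 ± 0.14), Tlr12 held 18.5, 22.4 and 34.9 CPM at 2 weeks, against 4.02, 4.34 and 6.51 CPM at P0 (log2 change 2.67 ± 0.15) and Cd14, the co-receptor of TLR4, held 261, 298 and 368 CPM at 2 weeks, against 96.2, 118 and 149 CPM at P0 (log2 change 1.66 ± 0.08). Tlr8 fell, at 0, 0.108 and 0.941 CPM at 2 weeks, against 6.03, 14.6 and 44.9 CPM at P0 (log2 change -5.60 ± 0.65). The value of Tlr8 was -6.37 without constitutive-model library 81 at 2 weeks, -4.92 with sex as a covariate, -4.94 without the 3 P0 libraries that stand apart and -3.90 in the male constitutive-model libraries alone.

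Most interferon-stimulated genes fell. Of the 35 type I interferon genes 24 fell and 4 rose (39.4% and 30.8% of all genes tested), with a median log2 change of -1.68. Ifitm3, a membrane protein gene that blocks viral entry, held 1.88, 2.56 and 3.95 CPM at 2 weeks, against 25, 52.2 and 80.8 CPM at P0 (log2 change -4.00 ± 0.21). Oasl2 held 2.69, 4.64 and 7.31 CPM at 2 weeks, against 23.6, 36.5 and 87.5 CPM at P0 (log2 change -2.85 ± 0.21), Oas2 held 0.661, 2.07 and 3.19 CPM at 2 weeks, against 12.7, 15.3 and 63.2 CPM at P0 (log2 change -3.50 ± 0.32) and Ifi204 held 0.314, 1.56 and 3.57 CPM at 2 weeks, against 21.9, 40.3 and 60.0 CPM at P0 (log2 change -4.35 ± 0.31). The receptor genes rose by little, Ifnar2 by 0.64 ± 0.07 and Ifnar1 by 0.33 ± 0.08 on the log2 scale. The call of Ifnar1 was lost with library totals alone (0.01) and with factors from genes of at least 10 CPM (0.10).

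Of 21 complement genes 8 rose and 11 fell (30.8% and 39.4% of all genes tested). Itgam, the integrin chain of complement receptor 3, held 512, 545 and 632 CPM at 2 weeks, against 146, 167 and 180.5 CPM at P0 (log2 change 2.09 ± 0.08), and part of its exons lies in Gm49368. The C1q genes were high at both ages, with C1qb at 5119, 6213 and 6594 CPM at 2 weeks, against 4752, 5582 and 7033 CPM at P0 (log2 change 0.42 ± 0.09) and C1qc at 3652, 4396 and 4849 CPM at 2 weeks, against 3137, 3842 and 4533 CPM at P0 (log2 change 0.49 ± 0.09). Their groups overlap, and their calls were lost with library totals alone (0.10 and 0.18). C2 and Cd93, which monocytes and endothelium express, fell to near 0 (log2 changes -5.25 ± 0.29 and -7.48 ± 0.56). Cd93 had -8.17 without constitutive-model library 81 at 2 weeks, -6.64 without the 3 P0 libraries that stand apart and -6.70 in the male constitutive-model libraries alone. Of the 33 phagocytosis and scavenger receptors 13 rose and 15 fell, likewise near the shares over all genes. Mertk, a receptor for phosphatidylserine ligands, held 895, 980.2 and 1042 CPM at 2 weeks, against 358, 428 and 520.2 CPM at P0 (log2 change 1.44 ± 0.09), while the related receptor Axl held 17.7, 23.8 and 30.6 CPM at 2 weeks, against 72.5, 93.9 and 110.4 CPM at P0 (log2 change -1.66 ± 0.12). Pros1, which encodes a ligand of these receptors, held 919, 1070.2 and 1126 CPM at 2 weeks, against 513, 547 and 597 CPM at P0 (log2 change 1.25 ± 0.07). The engulfment gene Elmo1 (log2 change 1.81 ± 0.09) and the integrin gene Itgb5 (log2 change 1.46 ± 0.10) rose.

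Of 26 MHC and antigen presentation genes 11 rose and 8 fell, against 30.8% and 39.4% of all genes tested (median log2 change 0.05). The class II genes H2-Aa and H2-Eb1 were almost absent at 2 weeks, with H2-Aa at 0.102, 0.421 and 0.879 CPM at 2 weeks, against 18.3, 26.3 and 41.6 CPM at P0 (log2 change -5.63 ± 0.29) and H2-Eb1 at 0, 0.0275 and 0.559 CPM at 2 weeks, against 9.71, 14.8 and 24.5 CPM at P0 (log2 change -6.23 ± 0.55, or -7.02 without constitutive-model library 77 at 2 weeks). Other genes of class II presentation differed from these. Cd74, the invariant chain gene, fell by a log2 change of -0.97, not past the 2-fold test. H2-DMb1 had the highest log2 change of the list (2.12). B2m, the light chain of class I, held 1084, 1316 and 1770.3 CPM at 2 weeks, against 997, 1341 and 1674 CPM at P0, with overlapping groups. Its small rise (log2 change 0.29 ± 0.11) turned to -0.03 with library totals alone, and its call was lost with factors from genes of at least 10 CPM (0.06), without the 3 P0 libraries that stand apart (0.09) and without any single one of 5 P0 libraries. Of 33 cytokine, chemokine and inflammasome genes 11 rose and 11 fell, also near the shares over all genes. The receptor genes Il10ra (711, 864 and 1068 CPM at 2 weeks, against 171, 259.5 and 407 CPM at P0, log2 change 2.05 ± 0.13) and Il6ra (log2 change 1.39 ± 0.11) rose. Il1a, an interleukin-1 gene, rose to 164, 189 and 216 CPM at 2 weeks, against 64.3, 88.6 and 129 CPM at P0 (log2 change 1.38 ± 0.12). Il1b went the other way and held 1.23, 2.13 and 4.04 CPM at 2 weeks, against 12.3, 18.1 and 31.6 CPM at P0 (log2 change -2.77 ± 0.28). Ccl24, an eotaxin gene, held 4.58, 7.98 and 11.5 CPM at 2 weeks, against 47.5, 57.6 and 161 CPM at P0 (log2 change -3.10 ± 0.27).

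Of 36 tested genes of purine signalling, neurotransmitter reception and ion channels 18 rose and 14 fell (30.8% and 39.4% of all genes tested). Entpd1, the ectonucleotidase CD39 that breaks down ATP and ADP, held 771, 879.5 and 911 CPM at 2 weeks, against 331, 389 and 412 CPM at P0 (log2 change 1.48 ± 0.07). Adora3, an adenosine receptor gene, held 88.7, 98.9 and 109 CPM at 2 weeks, against 34.2, 41.7 and 49 CPM at P0 (log2 change 1.58 ± 0.08), with exons shared with Tmigd3. Among those that fell were the glutamate receptor genes Gria2 (-8.05 ± 0.38) and Grin1 (-6.97 ± 0.57, or -8.41 without inducible-model library 3 at 2 weeks). The serotonin receptor gene Htr7 had no count at 2 weeks and held 0.44, 1.34 and 3.78 CPM at P0, at least 76.1-fold lower at 2 weeks against the level of 3 counts over the group. Neurons express these, the neuron sums fell in the same libraries, and their part was not tested.

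Respiratory chain transcripts fell in nearly every gene. Of the 64 nuclear genes of the respiratory chain 59 fell and none rose (39.4% and 30.8% of all genes tested). Past the 2-fold test were 9 of the falls, and the median log2 change was -0.75. In 59 of the 64 genes every 2-week library lay below every P0 library, as in 6037 of all 18243 genes tested. Atp5b, a catalytic subunit of ATP synthase, held 446, 467 and 491 CPM at 2 weeks, against 989, 1046 and 1203 CPM at P0 (log2 change -0.86 ± 0.06), Atp5g3 held 75.6, 99.5 and 113 CPM at 2 weeks, against 256, 307 and 369 CPM at P0 (log2 change -1.32 ± 0.08) and Cox4i1, a subunit of cytochrome oxidase, held 164, 185 and 219 CPM at 2 weeks, against 403, 474 and 550.0 CPM at P0 (log2 change -0.97 ± 0.06, exons shared with Emc8). All 8 tested genes of the mitochondrial genome fell as well (median -0.78), with mt-Cytb at 1168, 1293 and 1879 CPM at 2 weeks, against 2079, 3322 and 4400.0 CPM at P0 (log2 change -0.85 ± 0.13). Of the 25 glycolysis genes 15 fell and 6 rose (39.4% and 30.8% of all genes tested). Pfkp, a phosphofructokinase gene, held 0.605, 1.35 and 2.2 CPM at 2 weeks, against 55.2, 118 and 382 CPM at P0 (log2 change -6.56 ± 0.34, exons shared with Pitrm1), and Gpi1 held 59, 62.3 and 70.4 CPM at 2 weeks, against 165, 183 and 259 CPM at P0 (log2 change -1.34 ± 0.10). The lactate dehydrogenase subunits parted: Ldha held 123, 137 and 165 CPM at 2 weeks, against 361, 391 and 739 CPM at P0 (log2 change -1.42 ± 0.18), whereas Ldhb held 306, 393 and 427 CPM at 2 weeks, against 90.3, 179.8 and 193 CPM at P0 (log2 change 1.60 ± 0.14).

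Ribosomal protein transcripts were lower by a modest amount. Of 60 genes 36 fell and 5 rose (39.4% and 30.8% of all genes tested), with a median log2 change of -0.45. The summed level was 2126 to 2665 CPM at 2 weeks, against 3759 to 4905 CPM at P0. Rpl8 held 127, 137 and 153 CPM at 2 weeks, against 240.2, 256 and 321 CPM at P0 (log2 change -0.63 ± 0.07). Many of these genes have processed pseudogenes, between which the counting could split reads.

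Lysosome genes moved both ways and cholesterol synthesis genes mostly fell. Of 40 lysosome genes 19 rose and 12 fell (30.8% and 39.4% of all genes tested). With library totals alone 12 rose and 20 fell, where 3304 and 9282 of all 18243 genes did. Ctsf, a cathepsin gene, held 538, 591 and 656 CPM at 2 weeks, against 210.3, 309 and 362 CPM at P0 (log2 change 1.28 ± 0.10), and Cd63, a tetraspanin of late endosomes, held 94, 112 and 127 CPM at 2 weeks, against 300.5, 314 and 419.9 CPM at P0 (log2 change -1.28 ± 0.09). Of 25 cholesterol synthesis genes 16 fell and 3 rose (39.4% and 30.8% of all genes tested). Sqle, squalene epoxidase, held 7.57, 11.4 and 20.6 CPM at 2 weeks, against 29.7, 49.5 and 84.2 CPM at P0 (log2 change -1.70 ± 0.18), and Hmgcs1, an early enzyme of the pathway, held 39.4, 50.2 and 63.9 CPM at 2 weeks, against 110.4, 125 and 208 CPM at P0 (log2 change -1.09 ± 0.13, exons shared with Gm48342).

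Most genes of the fetal and growth programs were far lower at 2 weeks. Of 25 imprinted fetal growth genes 21 fell and 3 rose (39.4% and 30.8% of all genes tested). The median log2 change was -6.90, or -6.72 where the 3 genes without a count at 2 weeks are set to the bound that 3 counts allow. Nnat, a small proteolipid gene of the developing brain, held 0.197, 0.877 and 1.54 CPM at 2 weeks, against 117, 254 and 421 CPM at P0 (log2 change -7.75 ± 0.25), and the long non-coding RNA Meg3 held 0.661, 1.6 and 4.55 CPM at 2 weeks, against 161, 549.5 and 1668 CPM at P0 (log2 change -8.10 ± 0.53). Grb10, an adaptor that restrains growth signals, held 0, 0.0554 and 0.406 CPM at 2 weeks, against 11.3, 16.2 and 32.5 CPM at P0 (log2 change -7.23 ± 0.40). Sgce, a sarcoglycan gene, was an exception and held 182, 213 and 238 CPM at 2 weeks, against 89.7, 102 and 121 CPM at P0 (log2 change 1.36 ± 0.07). Of 21 fetal RNA-binding and oncofetal genes 14 fell and 4 rose (39.4% and 30.8% of all genes tested). Lin28b, which blocks the maturation of let-7 microRNAs, held 0.0533, 0.249 and 1.63 CPM at 2 weeks, against 5.77, 10.5 and 13.4 CPM at P0 (log2 change -3.79 ± 0.48, or -4.52 with sex as a covariate and -5.37 in the male constitutive-model libraries alone). Igf2bp3, an RNA-binding protein gene of fetal tissues, held 16.1, 22.2 and 26.1 CPM at 2 weeks, against 74.7, 86.9 and 98.3 CPM at P0 and kept a measurable level at 2 weeks (log2 change -1.70 ± 0.10). Tuba1a and Tubb2b, tubulin genes of young neurons, fell (log2 changes -2.61 ± 0.19 and -2.57 ± 0.15). Neurons and their precursors express many of these genes, the neuron sums fell in the same libraries, and their part in these falls was not tested.

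Of 37 DNA methylation and chromatin writers and erasers 13 rose and 13 fell, near the shares over all genes tested (30.8% and 39.4%). Dnmt3a, a de novo methyltransferase gene, held 195, 228 and 242 CPM at 2 weeks, against 132, 163 and 167 CPM at P0 (log2 change 0.84 ± 0.06). The maintenance genes went down, with Dnmt1 at 29.5, 39.5 and 55.3 CPM at 2 weeks, against 71.2, 87.8 and 117 CPM at P0 (log2 change -0.83 ± 0.15) and Uhrf1 at 1.72, 5.51 and 10.6 CPM at 2 weeks, against 27.4, 34 and 39.9 CPM at P0 (log2 change -2.42 ± 0.30). Both had a smaller fall in the constitutive model, by 1.03 ± 0.18 for Dnmt1 and 2.08 ± 0.28 for Uhrf1 on the log2 scale (edgeR adjusted p = 0.00545 and 8.17e-04). In the male constitutive-model libraries alone Dnmt1 was not called (-0.32). Hdac7, a class IIa deacetylase gene, held 0.403, 0.997 and 1.63 CPM at 2 weeks, against 5.33, 12.4 and 18.3 CPM at P0 (log2 change -3.26 ± 0.30, exons shared with Slc48a1). Of 23 immediate early genes, which also respond to tissue handling, 8 rose and 5 fell (30.8% and 39.4% of all genes tested). Jun held 556, 979.7 and 1433 CPM at 2 weeks, against 227, 344 and 859.6 CPM at P0 (log2 change 1.66 ± 0.24) and Ier5 held 292, 381 and 503 CPM at 2 weeks, against 85.3, 106 and 193 CPM at P0 (log2 change 1.98 ± 0.11). Egr1 was not called and its groups overlap, at 324, 451 and 777 CPM at 2 weeks, against 148, 311 and 1544 CPM at P0 (log2 change 0.33 ± 0.39). At P0 inducible-model library 56 stood above the others in Jun and Egr1, and without it Egr1 rose (0.88). At 6 weeks relative to E16, 17 of 23 immediate early genes rose and 1 fell. Esr1, the estrogen receptor gene, was low and held 4.74, 5.78 and 9.4 CPM at 2 weeks, against 2.25, 3.09 and 6.93 CPM at P0 (log2 change 1.06 ± 0.22).

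The largest rises were taken over genes past the 2-fold test, without overlap between the ages and with a mean of at least 5 CPM at 2 weeks. Predicted and unnamed genes were left out. Those that remained were not list members apart from Selplg. Upk1b, which encodes the membrane protein uroplakin 1b, led with 38.8, 66.1 and 77 CPM at 2 weeks, against 0.0559, 1.15 and 2.25 CPM at P0 (log2 change 6.12 ± 0.39, edgeR adjusted p = 1.30e-09). Cmya5, a gene of muscle that overlaps unnamed transcripts, held 21.2, 24.5 and 40.1 CPM at 2 weeks, against 0.615, 1.32 and 3.21 CPM at P0 (log2 change 4.42 ± 0.27). The metalloprotease gene Adamts16 held 39.4, 47.5 and 60.9 CPM at 2 weeks, against 2.08, 3.35 and 7.94 CPM at P0 (log2 change 3.88 ± 0.24), and Slco4a1, an organic anion transporter gene, held 73.7, 85.6 and 109 CPM at 2 weeks, against 4.81, 9.01 and 12.7 CPM at P0 (log2 change 3.69 ± 0.17). Tmem204 held 38, 50.3 and 59.7 CPM at 2 weeks, against 2.79, 3.52 and 6.59 CPM at P0 (log2 change 3.93 ± 0.17). Asap3 (log2 change 3.44 ± 0.15), Mmp28 (3.77 ± 0.34), Thrsp (3.75 ± 0.29), Mymk (3.51 ± 0.43), Rxfp1 (3.41 ± 0.47) and the long non-coding RNA Trp53cor1 (3.93 ± 0.25) completed the 12. Of these Rxfp1, a relaxin receptor gene, rose by less in the constitutive than in the inducible model, with a difference of -2.70 ± 0.63 (edgeR adjusted p = 0.0303). Without the 3 P0 libraries that stand apart the log2 changes were 6.87 for Upk1b and 2.63 for Rxfp1.

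Under the same filters, with the mean taken at P0, the largest falls were genes without a single count, or with 1 count, in the 8 libraries at 2 weeks. Against the level that 3 counts over the 2-week group would give, which covers counting error only, Cma1, a mast cell chymase gene, was at least 1785-fold lower. Cma1 held 0.0694, 11.1 and 128 CPM at P0, the highest value in inducible-model library 55, without which the bound was 844-fold. The bounds were at least 978-fold lower for Edil3, 766-fold for Lingo2, 525-fold for Igsf21, 489.5-fold for Zfp711, 455-fold for Fam124a, 438-fold for B3gnt5, 421-fold for Adarb2 and 349-fold for the gamma T cell receptor segment Tcrg-C1. Dcn, the matrix proteoglycan decorin, held 6.49, 13.9 and 31 CPM and the host gene of a miR-9 copy, Mir9-3hg, 5.61, 17.9 and 27 CPM at P0, each with 1 count at 2 weeks. The neuron, vascular and other marker sums fell in the same libraries. The part of RNA from other cells in these largest falls was not tested.

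Most markers of other cells fell, against 39.4% of all genes tested. All 15 neuron markers, all 13 border macrophage markers and 10 of 11 monocyte markers fell, and 8 of 9 erythroid, 13 of 15 vascular and 12 of 13 astrocyte markers. Of 12 lymphocyte markers 11 fell and none rose, and of 11 markers of the oligodendrocyte lineage, which forms myelin after birth, 6 fell and 2 rose. Stmn2, a tubulin-binding protein gene of neurons, held 0.275, 0.718 and 1.66 CPM at 2 weeks, against 113, 192 and 408 CPM at P0 (log2 change -7.74 ± 0.30). Pf4, a chemokine gene of border macrophages, held 0.789, 1.78 and 3.14 CPM at 2 weeks, against 324, 489 and 1853 CPM at P0 (log2 change -8.35 ± 0.57), and Lyve1 held 0.426, 0.915 and 1.78 CPM at 2 weeks, against 194, 361 and 1426 CPM at P0 (log2 change -8.67 ± 0.53). Without the 3 P0 libraries that stand apart these changes were -7.56 and -7.93, and that of Mrc1 -2.56. Mrc1 kept 73.9, 101 and 149 CPM at 2 weeks, against 591, 837 and 3548 CPM at P0 (log2 change -3.35 ± 0.47). Hbb-bt, a beta globin gene, held 0.11, 1.13 and 3.32 CPM at 2 weeks, against 54.3, 115 and 173 CPM at P0 (log2 change -6.17 ± 0.41). Of the 15 neutrophil markers 10 fell, with S100a9 at 25.6, 32.4 and 163 CPM at 2 weeks, against 198, 429 and 1117 CPM at P0 (log2 change -2.81 ± 0.60), or -2.19 without the 3 P0 libraries that stand apart. In the male constitutive-model libraries alone it was -1.34 and not called. Pecam1, listed as vascular, rose and held 45.8, 51.6 and 62.6 CPM at 2 weeks, against 16.3, 24.9 and 40.2 CPM at P0 (log2 change 1.42 ± 0.14). Fits without the 3 P0 libraries that stand apart gave 4950 rises and 7667 falls.

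Each model alone gave rises and falls on a similar scale. In the constitutive model, with 4 libraries at each age, 4357 of 16346 genes rose (26.7%) and 5983 fell (36.6%). In the inducible model, with 4 at 2 weeks and 3 at P0, 3579 of 16321 genes rose (21.9%) and 5345 fell (32.7%). The models share no library. Among 15624 genes tested in both, 2941 rose in both, which is 67.7% of the rises of the constitutive and 84.2% of those of the inducible model, and 4520 fell in both (83.6% and 87.5%). Of these genes 13 rose in the constitutive and fell in the inducible model, and 9 fell and rose. Of the homeostatic genes 32 of 35 passed the test with the same sign in each model, and of the mitosis genes 39 of 40. In male constitutive-model libraries alone, 3 at each age and a choice made after the data were seen, 3849 genes rose and 5509 fell.

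Controls of the inducible model at 6 weeks and on embryonic day 16 (E16), 4 libraries each that the comparison above did not use, enclose the same window. At 6 weeks relative to E16, 3842 of 16143 genes rose (23.8%) and 5556 fell (34.4%). Of 930 genes that rose past the 2-fold test from P0 to 2 weeks and were tested here, 842 rose (90.5%, and 22.1% of the rises from E16 to 6 weeks) and none fell. Of 3257 such falls 3038 fell (93.3%, and 54.9% of the falls) and 4 rose. RNA of other cells ran the same way in these libraries. Neuron markers summed to 430 to 1315 CPM at E16, against 1.55 to 4.21 CPM at 6 weeks. Border macrophage markers summed to 3811 to 8212 CPM at E16, against 543 to 711 CPM at 6 weeks. The part of such RNA in the shared falls was not tested. The homeostatic list rose in 32 of 35 genes and fell in 1, Crybb1 (-0.65 ± 0.19), and the mitosis list fell in 39 of 40.

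The 4 ages of the inducible-model controls give the levels over a longer span. Mean levels of P2ry12 were 2719, 1984, 11694 and 8517 CPM at E16, P0, 2 weeks and 6 weeks, so that the level was highest at 2 weeks. Tmem119 had 508, 408, 2840.1 and 3254 CPM, and its E16 and P0 libraries overlap. Upk1b had 0.21, 1.15, 70.9 and 159 CPM, and every 6-week library lay above every 2-week library. Apoe had 10473, 12009, 1739 and 679.7 CPM. Mki67 had 239, 310.4, 30.9 and 2.01 CPM. Spp1 had 689, 1817, 17.4 and 7.38 CPM. Igf2bp3 had 101, 84.8, 19.9 and 4.77 CPM, and every 6-week library lay below every 2-week library. Steps between neighbouring ages other than P0 and 2 weeks were not tested.

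**Figure D5:**
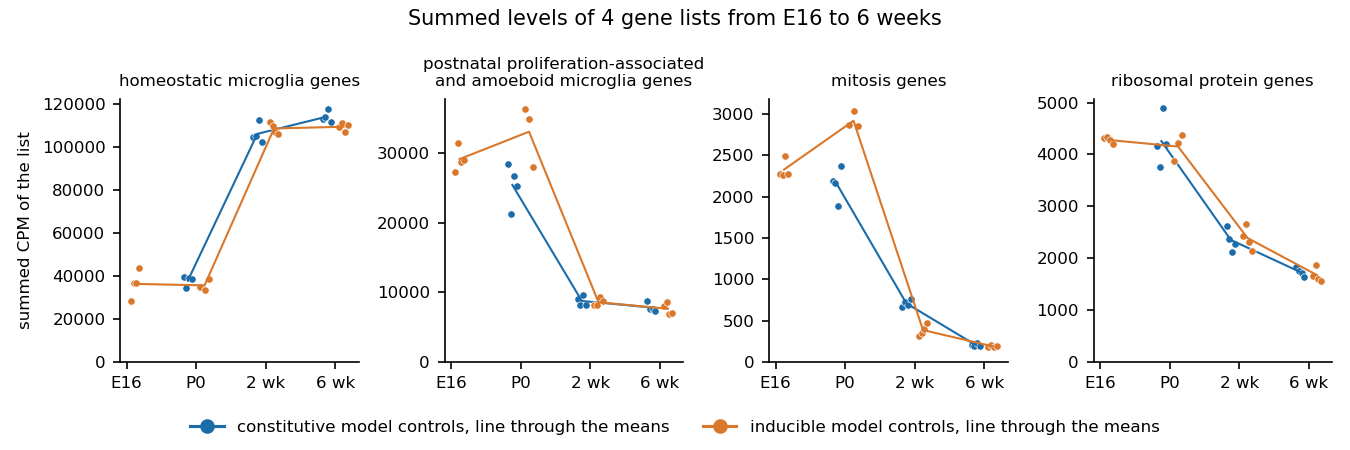
Summed CPM of 4 gene lists in each control library from E16 to 6 weeks, with lines through the group means of the constitutive model (no E16) and the inducible model. The homeostatic sum is 28189 to 43674 CPM at E16, 33368 to 39471 at P0, 102250 to 112840 at 2 weeks and 107030 to 117980 at 6 weeks, and the other 3 lists are lower at 2 weeks than at P0 in every library.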

How the data were processed

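Microglia sorted from the brain were sequenced as bulk RNA. Per the labels' protocols, RNA was amplified with a SMARTer kit and made into libraries with Nextera XT. The submitters' processing notes name CASAVA 1.8.2, STAR 2.5.2b, Subread with featureCounts 1.5.1, limma 3.28.21 and GRCm38. The deposited table of raw counts per gene was used, and its CPM and log2 versions were not. Sources used here do not name the annotation behind the counts. Groups came from the labels. Counts were fitted with edgeR 4.0.16 in R 4.3.3 (TMM factors, filterByExpr, robust quasi-likelihood F test, model as block, Benjamini-Hochberg threshold 0.05), and the 2-fold rule with glmTreat. Standard errors are those of the log2 change. CPM are counts over library totals, while changes use TMM scaling. Code was tested on simulated data. Named genes were the 12 largest rises and 12 largest falls past the 2-fold test, without overlap between ages and with a mean of at least 5 CPM at the higher age. Predicted and unnamed genes were left out of these. Also named were up to 4 called members of each list by adjusted p plus its 2 most abundant, and the 10 smallest p-values of the difference between models. Some genes were named outside this rule, after their values were seen, such as Tmem119, Spp1, Gpnmb, Id3, Mcm5, Mcm6, Sparc and Gria2. A few genes are not reported here. The members and lists were chosen with earlier results of these data known. Alternatives were RLE factors (also through DESeq2 1.42.0), library totals, filters, sex as a covariate, limma-voom (limma 3.58.1) and leaving out libraries.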

Additional observations from a re-analysis of the deposited data

Results flagged for a closer look

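Single libraries stood far from the rest of their age in 30 of 334 groups of values tested, 10 at 2 weeks and 20 at P0, by the ratio of the gap to the range. Chance alone marks about 1 in 20 groups. Inducible-model P0 library 56 held the highest value of 4 immediate early genes, with 859.6 CPM of Jun, 1544 of Egr1, 193 of Ier5 and 289.6 of Btg2, and also of Il6ra (298), Selplg (395) and Oasl2 (87.5 CPM). Constitutive-model P0 library 70 held the highest level of the neuronal genes Tuba1a (1306 CPM), Tubb2b (139) and Stmn2 (408), of the summed vascular markers (323 CPM), and of Thrsp (5.04) and Mmp28 (1.89 CPM).

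At P0, library 55 of the inducible model was highest in Cma1 (128 CPM), Ets1 (77.4) and Tgfb3 (6.00 CPM) and library 54 in Oas2 (63.2 CPM). Library 74 of the constitutive model was highest in Rxfp1 (5.63 CPM) and Tlr12 (6.51), and library 71 in Smad3 (62.1 CPM). At 2 weeks inducible-model library 3 was lowest in C1qb (5119 CPM) and Hdac1 (16.2) and highest in Igf1 (21.6) and Grin1 (0.246 CPM). Library 2 was highest in Hbb-bt (3.32) and Stmn2 (1.66 CPM). Constitutive-model library 81 was highest in Tmem173 (832 CPM), and library 83 in Grb10 (0.406 CPM). A single count set 2 further cases, at 0.0628 CPM for Dcn and Mir9-3hg in library 81.

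The age effect differed between the models, by the test of the difference, in 345 genes with a positive and 72 with a negative sign, and in 23 of the 162 genes named with values. Besides the 9 genes of the report and Mki67 (2.05 ± 0.28), the constitutive minus inducible difference in log2 was 2.08 ± 0.28 for Uhrf1, 1.71 ± 0.28 for Mcm6, 1.45 ± 0.26 for Ccnb2, 1.43 ± 0.27 for Mcm5, 1.28 ± 0.25 for Ube2c, 1.13 ± 0.21 for Cenpa, 1.03 ± 0.18 for Dnmt1, 0.87 ± 0.18 for Rrm1, 0.83 ± 0.18 for Mcm3 and 0.66 ± 0.16 for Tyms. Outside cell division it was 1.09 ± 0.22 for Ldha, 2.44 ± 0.52 for Mrc1, whose P0 level rests on libraries 54 and 55, and -2.70 ± 0.63 for Rxfp1. The values of the others were 3.00 ± 0.35 (Aspm), 2.36 ± 0.26 (Ndc80), 2.25 ± 0.27 (Shcbp1), 2.23 ± 0.21 (Kif23), 1.96 ± 0.23 (Prc1), 1.93 ± 0.23 (Tpx2), 1.85 ± 0.22 (Racgap1), 1.80 ± 0.23 (Spc25) and 1.45 ± 0.19 (Rrm2). Tamoxifen runs with the model, and sex runs with age in the inducible but not in the constitutive model. Neither can be told apart from these differences, and their part was not tested.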

How the results depend on the processing

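Of the 238 named genes 232 changed sign under no alternative run, or did so where neither value was called, and 3 (Cd79b, Cnp and Mbp) were called with the opposite sign. Of the 162 genes given with values, 38 moved by over 1.5-fold in male constitutive-model libraries alone, 16 with limma-voom, 10 with DESeq2, 10 without the 3 P0 libraries that stand apart and 3 with sex as a covariate. Leaving out 1 library at a time reversed none, and ended 31 calls in all. With library totals alone 3304 genes rose at 2 weeks, 580 of them past the 2-fold test, and the log2 change turned to -0.029 for B2m, -0.025 for Msmo1, -0.11 for Cd9, -0.28 for Cd79b, -0.28 for Cnp and -0.31 for Mbp. With TMM factors from genes of at least 10 CPM it turned to -0.021 for Cd9, -0.19 for Cnp and -0.23 for Mbp. A filter of 5 CPM in 7 libraries, under which fewer genes were tested, left 4023 falls, and 558 rises and 1447 falls past 2-fold. For the difference between models DESeq2 gave 565 positive and 314 negative genes, and the fit without the 3 P0 libraries that stand apart 56 and 20. The cause was not tested. Leaving out each library in turn gave 117 to 549 positive and 32 to 193 negative differences, 5076 to 5536 rises and 7037 to 7737 falls with age, and 891 to 980 rises and 4341 to 4949 falls past 2-fold. For single models it gave 4082 to 4298 rises and 5876 to 6229 falls (constitutive) and 2999 to 3658 rises and 4754 to 5395 falls (inducible), and from E16 to 6 weeks 3484 to 3882 rises and 5369 to 5954 falls. No paired analysis was possible because each library came from its own animal, taken at a single age. At 12307658 counts or more per library, genes without a count at 2 weeks have only a bound on their fold change.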
